A study of Homo sapiens with 6 samples.

Results

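The genes of the proteasome were compared between IQGAP2 knockdown and control libraries of HaCaT, a line of human skin keratinocytes that became immortal in culture and is aneuploid. The members were the genes whose symbol starts with PSMA, PSMB, PSMC, PSMD, PSME, PSMF or PSMG followed by a digit, and 48 of 12829 genes of the expression table met this rule. Members were selected on their names, while the family as a whole was chosen with its FPKM values in control and knockdown libraries already in view. Counts and medians over the family are therefore given as a description. RNA-seq was made from 3 libraries of cells labelled normal control with genotype WT and from 3 libraries of cells with a short hairpin RNA against IQGAP2. All cells were grown in DMEM with fetal bovine serum. Whether the controls carried a hairpin, how many hairpins were used, and whether the knockdown cells were a pool or a clone is not stated in the labels.

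The proteasome is the large protease that degrades ubiquitin-tagged proteins in the cytosol and nucleus. Its core is a barrel of stacked rings, in which alpha subunits (PSMA genes) form the outer rings and gate the entry, and beta subunits (PSMB genes) form the inner rings and carry the active sites. A regulatory cap binds ubiquitin chains, removes them and unfolds the substrate. It consists of a base with ATPases (PSMC genes) and scaffold subunits, and a lid (most PSMD genes). Cells exposed to interferon exchange the catalytic beta subunits for the immunoproteasome subunits PSMB8, PSMB9 and PSMB10, which change the set of peptides made for MHC class I presentation. Keratinocytes, like most cells, make the proteasome constitutively, and the transcription factor NFE2L1 (also called NRF1) is known to raise its genes when proteasome activity falls.

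Levels are FPKM, that is fragments per kilobase of gene scaled by library depth, and are given in replicate order or as mean ± SD (n = 3). A log2 change is the knockdown mean less the control mean of log2(FPKM + 1), and for genes of low level it is smaller than the true change. Adjusted p-values come from limma over the 11214 genes that averaged 0.5 FPKM or more, with a threshold of 0.05. A gene is said to have risen or fallen only where it passed. The labels call the libraries biological replicates without saying that they were separate cultures, so p-values rest only on how far these libraries differ, and that spread may be technical.

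The control libraries held 13957447 to 15122470 recovered reads and the knockdown libraries 12901037 to 15360759. IQGAP2, the targeted gene, held 24, 22 and 21 reads in the control libraries and 2, 4 and 2 reads in the knockdown libraries. Its level was low in both groups, at 0.190 to 0.200 FPKM in control and 0.0182 to 0.0328 FPKM in knockdown libraries. These values lie below the filter of 0.5 FPKM. Knockdown replicate 2 stood apart within its group. A chi-square over its reads, divided by the degrees of freedom, was 11.3 and 10.5 against the other knockdown libraries, beside 2.10 to 2.49 for every other pair within a group. All 11 keratinocyte markers checked were expressed, with summed levels of 6803 to 6900 FPKM in control and 6943 to 7612 FPKM in knockdown libraries. Of these markers 7 rose, beside 29.5% of all genes tested. Fewer cells of a type and less RNA per cell cannot be told apart in bulk libraries. The 5 leukocyte markers had no row in the table used here, nor did COL1A2, COL3A1 and PDGFRB of fibroblasts, MLANA, TYR and DCT of melanocytes, and PECAM1 and KDR of endothelium. The remaining 3 of 6 fibroblast markers summed to 3.46 to 3.79 and 1.56 to 1.91 FPKM, 2 of 5 melanocyte markers to 1.20 to 1.28 and 0.855 to 1.04 FPKM, and 2 of 4 endothelial markers to 0.269 to 0.401 and 0.424 to 0.484 FPKM.

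Promoter sequences were available from RefSeq (GRCh38.p14) for 42 of the 48 members, in 53 windows. The members not matched were PSMA7, PSMB1, PSMB6, PSMB7, PSMD4 and PSMG3. The 250 bases before each start were searched on both strands for the core of the antioxidant response element TGANNNNGC, which NFE2L1 and NFE2L2 are known to bind with small MAF proteins, for the CCAAT box CCAAT, and for the interferon motifs TTCNNNGAA (the GAS element) and TTTCNNTTTC (the core of the interferon-stimulated response element). The antioxidant core was found in 24 members (57.1%, against 43.8% of the 10310 genes of the table with a window) and the CCAAT box in 20 (47.6%, against 41.7%). The GAS letters were found in 6 members (14.3%, against 7.54%) and the interferon response core in 5 (11.9%, against 3.42%). In 4 members the antioxidant core overlapped another motif: the CCAAT box in PSMA3, PSMA5 and PSME3IP1, and the GAS letters in PSMB5. A match describes letters and does not show binding.

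Stretches of 30 bases around the interferon response core are shown for 4 of the 5 members that held it, with the matched letters in capitals, because these include an immunoproteasome subunit and an interferon-induced activator subunit whose levels are described below. They read 5′ to 3′ along the strand of the gene. The PSMB10 stretch lies at chr16:67936852-67936881 (minus strand), that of PSME2 at chr14:24146619-24146648 (minus strand), that of PSMG4 at chr6:3258904-3258933 (plus strand) and that of PSMB4 at chr1:151399495-151399524 (plus strand).
PSMB10: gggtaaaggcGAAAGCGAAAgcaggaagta
PSME2: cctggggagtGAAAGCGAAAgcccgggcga
PSMG4: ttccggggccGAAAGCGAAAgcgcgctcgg
PSMB4: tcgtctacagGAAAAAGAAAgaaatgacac
PSMB10, PSME2 and PSMG4 held the same 10 letters, and PSMB4 held a different match. All 30 bases of the PSMB10, PSME2 and PSMG4 stretches lie within annotated exons of GENCODE v29, and none of those of PSMB4 do, although all 4 lie before the RefSeq start. PSMA4 was the remaining member with this core.

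The next pair lie upstream of PSMB3, the member with the largest fall, and of PSMD12. PSMD12 had the largest positive log2 change, 0.24, beside 0.23 for PSMD5. Both stretches were taken from the 250 bases before the RefSeq start and end where the first GENCODE exon begins. Capitals mark the antioxidant core. The PSMB3 stretch is chr17:38752491-38752735 (plus strand) and the PSMD12 stretch chr17:67366628-67366827 (minus strand).
PSMB3: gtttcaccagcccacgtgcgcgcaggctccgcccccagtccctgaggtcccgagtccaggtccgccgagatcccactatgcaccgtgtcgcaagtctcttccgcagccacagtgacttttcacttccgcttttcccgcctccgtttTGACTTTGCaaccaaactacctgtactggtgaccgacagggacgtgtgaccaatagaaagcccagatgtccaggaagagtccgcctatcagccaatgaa
PSMD12: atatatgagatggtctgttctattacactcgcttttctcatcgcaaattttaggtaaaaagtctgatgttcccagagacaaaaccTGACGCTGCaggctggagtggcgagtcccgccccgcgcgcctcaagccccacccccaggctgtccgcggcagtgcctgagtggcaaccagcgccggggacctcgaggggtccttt
Each held the antioxidant core, although PSMB3 fell and PSMD12 rose. Counted from the RefSeq start, which lies past the end of each printed stretch, the core begins 104 bases upstream in PSMB3 and 165 bases upstream in PSMD12.

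The subunits of the proteasome are known to be present in fixed copy numbers, but their listed transcript levels were not equal. Among members with at least 5 FPKM on average, of which there were 43, control means ran from 5.11 ± 0.127 FPKM (PSMC3IP) to 209.9 ± 9.30 FPKM (PSMA7). PSMC3IP encodes no subunit, and the lowest core or cap gene among these was PSMD6, at 7.48 ± 0.0986 FPKM. The 5 members below 5 FPKM were PSMA1, PSMA2, PSMA6, PSMD9 and PSMG4. PSMA1, PSMA2 and PSMA6 encode obligatory subunits of the alpha ring, yet were listed at 1.90 ± 0.237, 0.132 ± 0.0517 and 0.971 ± 0.0717 FPKM in control, against 24.4 ± 0.0732 to 209.9 ± 9.30 FPKM for PSMA3, PSMA4, PSMA5 and PSMA7.

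In GENCODE v29 (GRCh38), these low genes except PSMG4 share coding bases with a second protein-coding gene on the same strand. The shared part of the principal coding sequence was 91.0% for PSMA1 (chromosome 11, 14504874 to 14643635), 100% for PSMA2 (chromosome 7, 42916857 to 42932223), 89.7% for PSMA6 (chromosome 14, 35278633 to 35317493) and 68.3% for PSMD9 (chromosome 12, 121888731 to 121918297). PSMB10 (chromosome 16, 67934502 to 67937087) shared 60.0%, and the other 43 members shared none. Over the whole table, 476 of 12805 genes with a principal coding sequence (3.72%) shared at least 50% in this way. The median of their mean levels was 1.03 FPKM, against 6.03 FPKM for the rest. The overlapping genes of PSMA1, PSMA2 and PSMA6 had no row in the table. AC040162.1, which overlaps PSMB10, and WDR66, which overlaps PSMD9, had rows, while AC069503.2, which also overlaps PSMD9, had none. How the authors' counting handled reads shared by overlapping genes is not given in the sources used here, so the listed levels of these 5 members may be incomplete, and the part of the overlap in them was not tested. PSMA2 held 2 to 7 reads per library and lay below the filter, so that 47 of the 48 members were tested.

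**Figure D1:**
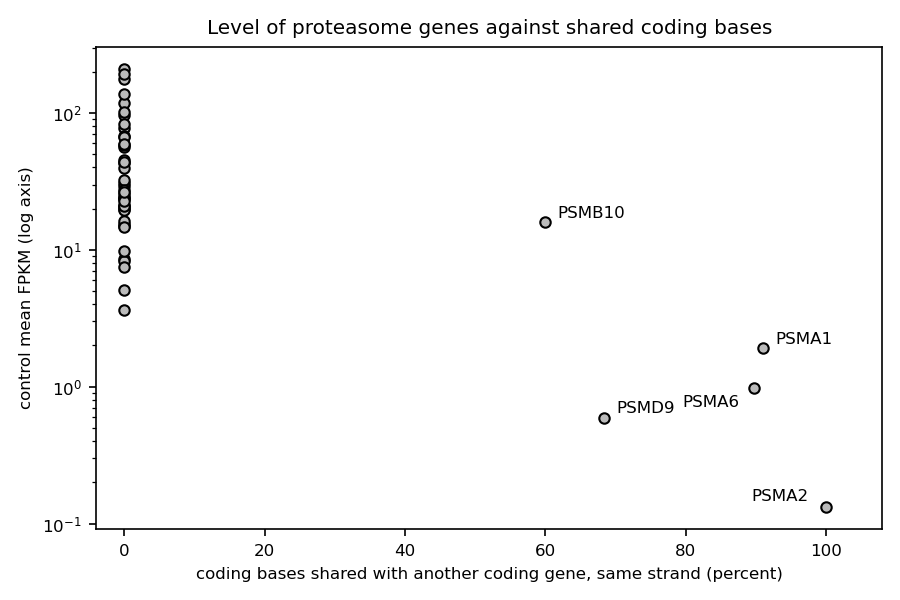
Control mean level of each of the 48 members (log axis, FPKM) against the percent of its principal coding bases that a second coding gene shares on the same strand. PSMA1, PSMA2, PSMA6 and PSMD9 lie at or below 1.90 FPKM with 68.3% or more shared, and 43 members lie at 0.

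**Figure D2:**
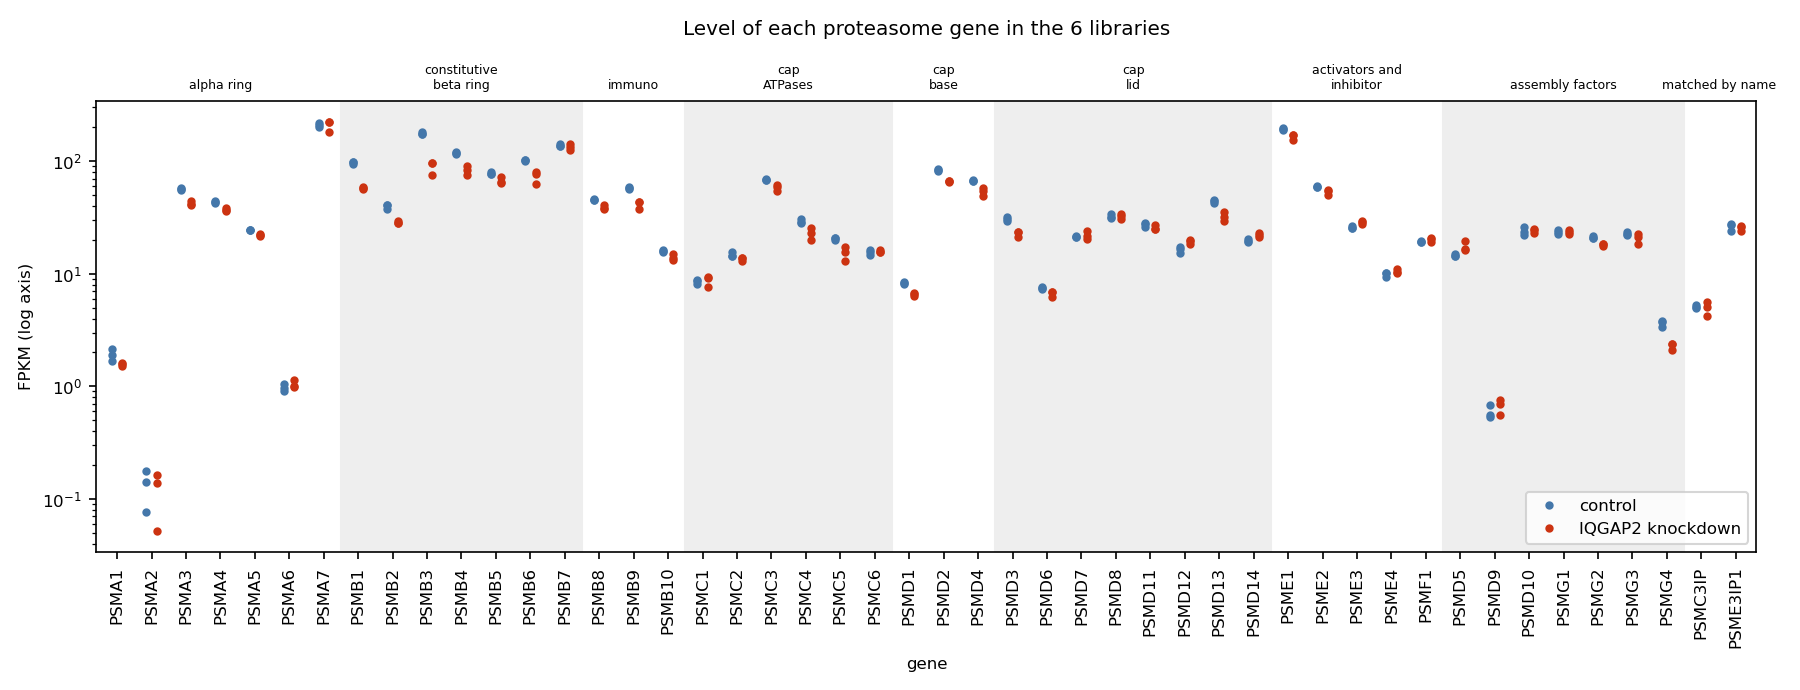
Level of every member (FPKM, log axis) in the 3 control and 3 knockdown libraries, 1 point per library, with shading to separate the classes. The groups separate most widely in the constitutive beta ring, where PSMB3 goes from 173 to 181 FPKM down to 75.5 to 97.0 FPKM.

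In the knockdown, 24 of the 47 members tested fell and 4 rose, while 19 did not pass. The 28 calls are 59.6% of the members, and the background over all genes tested was 57.4%, so the share of members that changed was near that of the transcriptome. Falls made up 51.1% of the members, with 27.8% of all genes lower, and rises 8.51%, with 29.5% of all genes higher. Every count of a class or list is to be read beside these shares over all genes. Without knockdown replicate 2, the library that stood apart, 25 members fell and 4 rose. The median change was -0.16 over the members and 0.01 over all genes tested. For 27 members all knockdown libraries lay below all control libraries (31.4% of all genes did so), and for 5 they lay above (33.7%). Summed over the 48 members, the level was 2170.5, 2157 and 2173 FPKM in control and 1859, 1691 and 1851 FPKM in knockdown libraries, or 83.1% of the control mean. The sum over all 12829 genes was also lower, at 271372, 274709 and 273759 FPKM in control and 248082, 234624 and 247921 FPKM in knockdown libraries.

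This balance depended on how libraries were scaled. FPKM summed to less in knockdown than in control libraries, and rescaling each library to a common sum moved the median of all genes from 0.01 to 0.14. Changes given below with a common sum are to be read beside this 0.14. The members then had a median of 0.00, with 14 lower and 12 higher, so that 46.2% of their calls were higher against 14.3% as deposited (72.6% and 51.5% over all genes). Members were short genes: their median rank of length was at 28.8% of the table, and 32 of 48 were in its shorter 50%. With the genes tested split by length into 5 classes of equal size, the median change was -0.17 in the shortest class and 0.15 in the longest. The 18 members of the shortest class had a median of -0.21. In the next class the 10 members were at -0.27, beside -0.07 for all genes. In the longer classes the members were not lower throughout: they were at 0.04 (7 members) beside 0.02, at 0.02 (6 members) beside 0.06, and at -0.14 (6 members, the longest class) beside 0.15. Once the trend over length was removed, 21 members were lower and 6 higher, with a median of -0.07. The part of length in the result was otherwise not tested. Spearman's rho between length and change was 0.34 across the 47 members and 0.30 across the 11214 genes, all from the same 6 libraries.

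**Figure D3:**
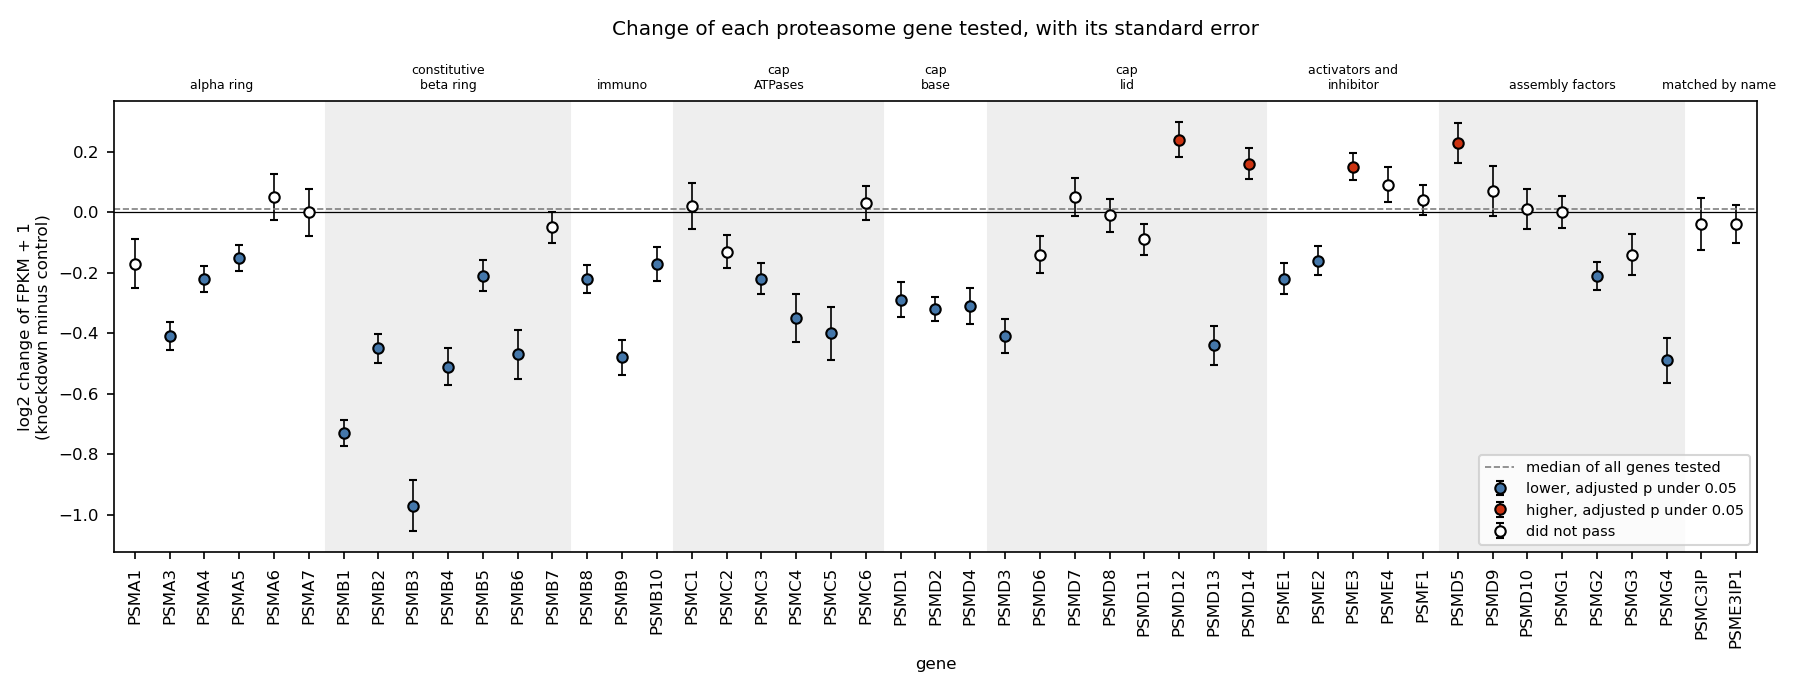
Log2 change of each of the 47 members tested (knockdown less control, from log2 of FPKM + 1), with its standard error from limma. Filled points passed the threshold, and the dashed line is the median of all genes tested, 0.01. All 3 immunoproteasome genes and 6 of 7 constitutive beta genes are filled and below 0.

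The constitutive beta ring had the lowest class median, -0.47, with 6 of 7 genes lower and none higher. It was -0.31 with a common sum. All 4 structural genes and 2 of 3 catalytic genes fell. PSMB3 (ENSG00000277791, chromosome 17, 38752736 to 38764231), a structural beta subunit without an active site, was at 173, 174 and 181 FPKM in control and at 96.3, 75.5 and 97.0 FPKM in knockdown libraries. It fell to 51.0% of the control mean (log2 change -0.97, SE 0.085, adjusted p = 1.18e-05). All knockdown libraries lay far below the controls, with replicate 2 the lowest.

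PSMB1 (ENSG00000008018, chromosome 6, 170535117 to 170553341), also non-catalytic, was at 97.8, 97.5 and 95.0 FPKM in control and at 58.6, 56.5 and 58.2 FPKM in knockdown libraries. It fell with little spread within either group (log2 change -0.73, SE 0.042, adjusted p = 7.85e-07). PSMB4, a further structural subunit, was at 116, 119.9 and 119 FPKM and at 82.7, 75.9 and 90.2 FPKM and fell to 70.1% (log2 change -0.51, adjusted p = 7.91e-05). PSMB2, the remaining structural gene, was at 37.7, 40.8 and 41.0 FPKM and at 29.6, 28.4 and 28.5 FPKM (log2 change -0.45, adjusted p = 4.32e-05). The groups lay apart in both genes. The calls of these 4 structural genes held under all 15 alternatives run, including the common sum and the removal of the length trend.

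Among the 3 catalytic subunits of the constitutive core, PSMB6, with the caspase-like activity, was at 102, 100.2 and 102 FPKM in control and at 77.2, 62.5 and 80.0 FPKM in knockdown libraries. It fell to 72.3% of control (log2 change -0.47, SE 0.080, adjusted p = 6.89e-04). PSMB5, with the chymotrypsin-like activity that bortezomib blocks, was at 76.6, 79.6 and 77.5 FPKM in control and at 64.2, 65.4 and 71.9 FPKM in knockdown libraries. It fell to 86.3% (log2 change -0.21, adjusted p = 0.00566), but did not pass with a common sum (-0.05) or without the length trend (-0.03). PSMB7, with the trypsin-like activity, was at 141, 137 and 136 FPKM in control and at 141, 125 and 134 FPKM in knockdown libraries. Its groups overlapped and it did not pass (log2 change -0.05, adjusted p = 0.405). With a common sum and without the length trend its change was positive and passed, at 0.11 and 0.13, so no direction is given. The median of all genes was 0.14 with a common sum.

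The alpha ring had a median change of -0.16 over 6 genes tested, of which 3 fell and none rose, and a median of -0.02 with a common sum. PSMA3 was at 56.7, 57.1 and 55.2 FPKM in control and at 44.4, 40.8 and 41.7 FPKM in knockdown libraries, and fell to 75.1% of control (log2 change -0.41, SE 0.047, adjusted p = 6.83e-05). PSMA4 was at 44.1, 43.2 and 42.8 FPKM and at 36.2, 37.1 and 38.2 FPKM and fell to 85.8% (adjusted p = 0.0019). PSMA5 was at 24.5, 24.4 and 24.4 FPKM and at 22.3, 21.9 and 21.8 FPKM and fell to 90.0% (adjusted p = 0.0159). Controls and knockdown libraries lay apart in all 3 genes. With a common sum PSMA4 and PSMA5 lost the call, at -0.05 and 0.01. PSMA5 also lost it with quantile normalization and when any control library was left out.

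PSMA7, the most abundant member, was at 210.0, 200.5 and 219 FPKM in control and at 224, 182 and 224 FPKM in knockdown libraries. Knockdown replicate 2 was the lowest of the 6 libraries and the other knockdown libraries were the highest, and the difference did not pass (adjusted p = 0.961). With a common sum or without the length trend PSMA7 passed as higher (0.16 and 0.18). PSMA1 was at 1.89, 1.67 and 2.14 FPKM and at 1.59, 1.504 and 1.62 FPKM, with an adjusted p of 0.0939. PSMA6, at 0.907, 0.957 and 1.05 FPKM and 1.14, 0.983 and 1.01 FPKM, overlapped between groups (adjusted p = 0.57). For PSMA2 the libraries gave 0.141, 0.0760 and 0.178 FPKM in control and 0.138, 0.162 and 0.0514 FPKM in knockdown, on few reads.

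All 3 immunoproteasome genes fell, with a median change of -0.22 (-0.06 with a common sum). PSMB9 (ENSG00000240065, chromosome 6, 32844136 to 32859585), which replaces PSMB6, was at 59.2, 56.6 and 57.9 FPKM in control and at 43.5, 37.8 and 42.9 FPKM in knockdown libraries. The groups were far apart, and PSMB9 fell to 71.5% of control (log2 change -0.48, SE 0.057, adjusted p = 8.51e-05). PSMB8 (ENSG00000204264, chromosome 6, 32840717 to 32844703), which replaces PSMB5, was at 46.4, 44.9 and 45.0 FPKM and at 40.5, 38.6 and 37.3 FPKM. It fell to 85.5% (log2 change -0.22, SE 0.046, adjusted p = 0.0024), and with a common sum did not pass (-0.06).

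PSMB10, which replaces PSMB7 and whose stretch before the RefSeq start is given above, was at 15.7, 16.1 and 15.8 FPKM in control and at 13.8, 13.4 and 15.1 FPKM in knockdown libraries. It fell to 88.6% (log2 change -0.17, SE 0.056, adjusted p = 0.0268). This was the least stable of the 3 calls: it was lost with a common sum, without the length trend, with voom on recovered reads, without any control library and without knockdown replicate 1. PSMB8 and PSMB9 share 139 exonic bases on opposite strands, and reads there cannot be told apart if counting ignored strand. PSMB8 also shares 618 exonic bases (20.6%) with PSMB8-AS1 on the opposite strand. PSMB9 shares 174 exonic bases with PSMB8-AS1 on the same strand.

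Each immunoproteasome gene was set beside the constitutive subunit it replaces. The ratio of PSMB8 to PSMB5 was 0.606, 0.563 and 0.580 in control and 0.630, 0.590 and 0.519 in knockdown libraries. For PSMB9 to PSMB6 it was 0.581, 0.564 and 0.569 against 0.563, 0.605 and 0.536, and for PSMB10 to PSMB7 it was 0.111, 0.117 and 0.117 against 0.0980, 0.106 and 0.113. All 3 ratios overlapped between groups, with means of 0.583 ± 0.0215 and 0.580 ± 0.0563 for PSMB8, 0.571 ± 0.00833 and 0.568 ± 0.0349 for PSMB9, and 0.115 ± 0.00328 and 0.106 ± 0.00739 for PSMB10. They were not tested. The level of PSMB10, which shares 60.0% of its coding bases with another gene, may be incomplete, so its ratio is uncertain.

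The immunoproteasome falls stood beside both rises and falls among genes listed for the class I antigen route. Such a mix was also seen over all genes tested, with 29.5% higher and 27.8% lower. Of 14 genes listed for that route 4 rose and 5 fell, with 6 and 3 under a common sum and 4 and 6 without the length trend. Of the 11214 genes tested, 4864 were higher and 1838 lower with a common sum, and 3233 higher and 3183 lower without the length trend. The peptidase ERAP1 was at 10.6 ± 0.534 FPKM and rose to 14.3 ± 0.942 FPKM (log2 change 0.40, adjusted p = 4.19e-04), and the peptide transporter TAP1, a neighbour of PSMB9, rose from 57.1 ± 1.77 to 70.2 ± 4.27 FPKM. The chaperone TAPBP fell from 77.0 ± 1.41 to 53.5 ± 2.22 FPKM, HLA-F from 22.0 ± 0.307 to 15.9 ± 1.80 FPKM and the light chain B2M from 680.5 ± 7.26 to 525 ± 11.7 FPKM. The calls of these 5 genes held under every alternative run. IRF1 is known to drive PSMB9 and TAP1 and was picked after its values were seen. It was at 10.99 ± 0.209 and 10.99 ± 0.277 FPKM and did not pass (adjusted p = 0.99). It passed at 0.15 with a common sum, where the median of all genes was 0.14, and at -0.15 without the length trend.

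**Figure D4:**
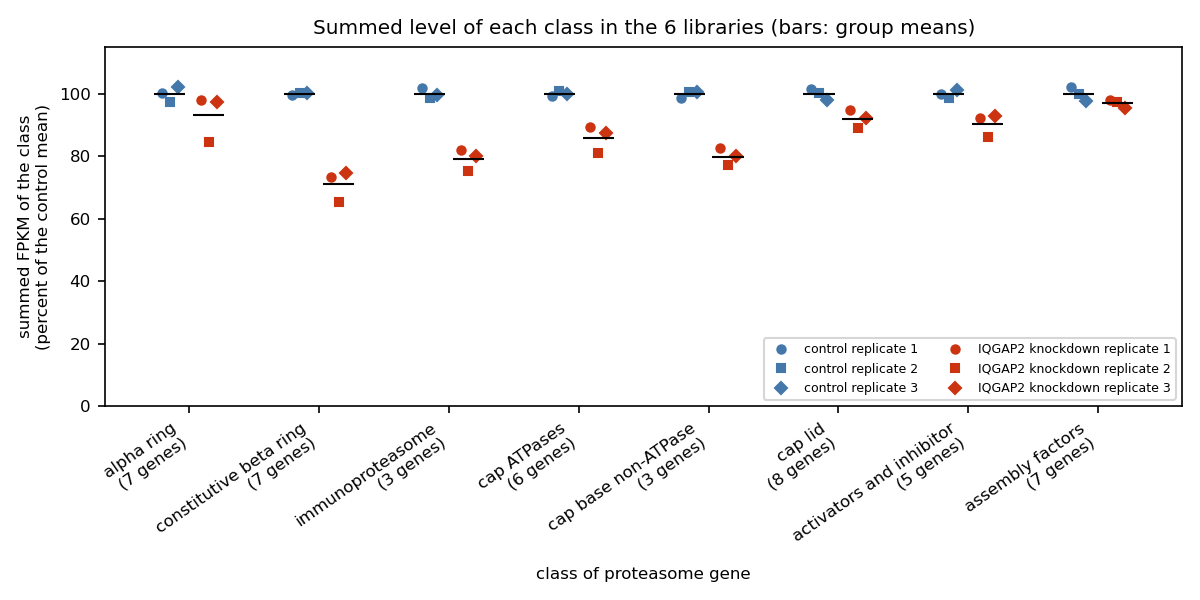
Summed FPKM of each class of proteasome gene in each library, as a percent of the control mean of that class, with bars at group means. The axis starts at 0. Values are as deposited, and the FPKM sum over all genes was also lower in the knockdown libraries. The constitutive beta ring lies at 73.5%, 65.5% and 74.8% in knockdown replicates 1 to 3, and the assembly factors at 98.0%, 97.5% and 95.4%.

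In the cap, 8 of 17 genes fell and 2 rose, with a median change of -0.14, which was 0.00 with a common sum. The 3 members in the base other than ATPases all fell, with changes from -0.32 to -0.29. PSMD2, the scaffold that receives shuttle factors, was at 81.9, 84.2 and 84.3 FPKM in control and at 67.1, 66.5 and 65.6 FPKM in knockdown libraries (log2 change -0.32, SE 0.041, adjusted p = 1.09e-04). PSMD4, a receptor for ubiquitin chains, was at 66.8, 66.8 and 67.5 FPKM and at 57.6, 49.2 and 54.7 FPKM (log2 change -0.31, adjusted p = 0.00112). PSMD1, the other large scaffold, was at 8.22, 8.50 and 8.07 FPKM and at 6.32, 6.61 and 6.78 FPKM (log2 change -0.29, adjusted p = 0.00175). For each of these genes all knockdown libraries lay below all controls. Of the 3, only PSMD1 lost its call, with a common sum (-0.14). ADRM1, a further subunit of the base outside the name rule, rose (log2 change 0.22, adjusted p = 0.0071) and is given below.

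The 6 ATPases, which form the ring that unfolds substrates, had a median change of -0.18, with 3 lower and none higher. PSMC5 was at 20.6, 20.7 and 20.0 FPKM in control and at 17.4, 12.9 and 15.7 FPKM in knockdown libraries and fell to 75.1% (log2 change -0.40, SE 0.087, adjusted p = 0.00302). PSMC4 was at 28.1, 30.3 and 28.8 FPKM and at 25.5, 19.9 and 22.9 FPKM (log2 change -0.35, adjusted p = 0.00352). PSMC3 was at 67.4, 69.0 and 67.4 FPKM and at 58.6, 54.4 and 61.8 FPKM (log2 change -0.22, adjusted p = 0.0049), a call that was lost with a common sum and without the length trend. In all 3 genes knockdown replicate 2 was the lowest library. PSMC5 shares 19.5% of its exonic bases with FTSJ3 on the opposite strand.

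PSMC6, at 16.3, 14.5 and 15.6 FPKM in control and 15.5, 16.3 and 15.7 FPKM in knockdown libraries, overlapped between groups (adjusted p = 0.663). PSMC1, at 8.17, 8.64 and 8.74 FPKM and 9.09, 9.29 and 7.62 FPKM, did so too (adjusted p = 0.846). PSMC1 shares 75.8% of its exonic bases with NRDE2 on the opposite strand, and 13 pseudogenes are named after it, the most for any member, so its level is uncertain. PSMC2 was at 14.5, 14.5 and 15.5 FPKM and at 13.7, 13.7 and 13.0 FPKM and did not pass (adjusted p = 0.0558), though it passed as lower without knockdown replicate 2, without the length trend, with voom and among genes of at least 5 FPKM.

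Of the 8 members in the lid, which holds the deubiquitinase and its scaffold, 2 fell and 2 rose. These are 25.0% each, near the 27.8% and 29.5% of all genes tested. The median of the 8 members, -0.05, became 0.11 with a common sum, where the median of all genes tested was 0.14. SEM1, a further lid subunit outside the name rule, fell (log2 change -0.69) and is given below. PSMD13 was at 45.5, 44.1 and 42.7 FPKM in control and at 35.5, 29.5 and 31.9 FPKM in knockdown libraries and fell to 73.2% (log2 change -0.44, SE 0.065, adjusted p = 2.79e-04). PSMD3 was at 29.2, 30.7 and 31.6 FPKM and at 23.5, 21.1 and 23.6 FPKM (log2 change -0.41, adjusted p = 1.97e-04). These scaffold subunits lay below the controls in every knockdown library.

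PSMD12, a scaffold subunit of the same lid, was at 16.5, 17.2 and 15.2 FPKM in control and at 18.3, 19.7 and 20.0 FPKM in knockdown libraries. It rose to 119% of control (log2 change 0.24, SE 0.059, adjusted p = 0.00634), also with a common sum (0.39) and without the length trend (0.22). PSMD14, the deubiquitinase that removes ubiquitin chains from substrates, was at 20.5, 19.5 and 19.2 FPKM and at 23.2, 21.3 and 22.1 FPKM. It rose to 112% (log2 change 0.16, adjusted p = 0.0214), but did not pass without the length trend (0.09), without control replicate 2 or 3, or without knockdown replicate 1. PSMD7, the partner of PSMD14, was at 21.0, 21.0 and 21.8 FPKM and at 20.4, 24.1 and 21.8 FPKM (adjusted p = 0.515). These groups overlapped. PSMD6 was at 7.37, 7.51 and 7.57 FPKM and at 6.94, 6.26 and 6.87 FPKM, lower in every knockdown library, and did not pass (adjusted p = 0.0672), though it passed as lower with quantile normalization (-0.18), without the length trend (-0.26) and with voom (-0.17). PSMD11 lay at 27.3 ± 1.07 and 25.5 ± 1.11 FPKM (adjusted p = 0.158) and passed as lower without the length trend (-0.15). PSMD8 lay at 32.5 ± 1.36 and 32.4 ± 1.77 FPKM (adjusted p = 0.915).

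Among the alternative activators, PSME1 and PSME2 encode the subunits of PA28-alpha-beta, an interferon-induced ring that binds the core in the cytosol. PSME1 was at 192, 189 and 196 FPKM in control and at 169, 155 and 172 FPKM in knockdown libraries and fell to 85.8% (log2 change -0.22, SE 0.051, adjusted p = 0.00417). PSME2 was at 60.1, 59.1 and 59.1 FPKM and at 55.0, 49.8 and 54.4 FPKM (log2 change -0.16, adjusted p = 0.0169). In each gene the groups did not overlap, yet neither passed with a common sum (-0.05 and 0.00) or without the length trend (-0.04 and -0.09), and PSME2 was lost without control replicate 1 or 3.

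PSME3, which forms the nuclear activator PA28-gamma, was at 25.3, 25.3 and 26.3 FPKM in control and at 28.7, 29.3 and 27.9 FPKM in knockdown libraries. It rose to 112% (log2 change 0.15, SE 0.045, adjusted p = 0.0156), a call lost without control replicate 1 or 2. PSME4, the large activator PA200, was at 10.1, 10.1 and 9.38 FPKM and at 10.2, 11.0 and 10.4 FPKM and did not pass (adjusted p = 0.22). PSMF1, a protein that binds the core and inhibits it in vitro, was at 19.3, 19.3 and 19.6 FPKM and at 20.7, 18.9 and 20.3 FPKM (adjusted p = 0.515). Over these 5 genes, of which 2 fell and 1 rose, the median change was 0.04, and it was -0.04 without the length trend.

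Assembly factors had a median change of 0.00 over 7 genes, with 2 lower and 1 higher. With a common sum their median was 0.13, beside 0.14 for all genes tested. PSMG4, part of the chaperone pair that helps build the alpha ring, was at 3.75, 3.36 and 3.80 FPKM in control and at 2.11, 2.38 and 2.39 FPKM in knockdown libraries. It fell to 63.0% (log2 change -0.49, SE 0.075, adjusted p = 3.41e-04). Its partner PSMG3 was at 23.5, 22.1 and 22.5 FPKM and at 21.0, 18.5 and 22.3 FPKM, with overlapping groups and an adjusted p of 0.104, and passed as lower without knockdown replicate 3 (-0.19). In the other chaperone pair, PSMG2 was at 20.8, 20.9 and 21.5 FPKM and at 18.3, 18.2 and 17.7 FPKM and fell (log2 change -0.21, adjusted p = 0.0032), though not with a common sum (-0.05) or without the length trend (-0.09). PSMG1 was at 23.3, 24.6 and 22.6 FPKM and at 24.6, 23.4 and 22.4 FPKM, and passed as higher only with a common sum or without the length trend (0.16 in each).

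The chaperones of the cap base are PSMD5, PSMD9 and PSMD10. PSMD5 was at 14.5, 15.1 and 14.5 FPKM in control and at 16.6, 19.4 and 16.4 FPKM in knockdown libraries, and rose to 119% (log2 change 0.23, SE 0.066, adjusted p = 0.0123). Here knockdown replicate 2 was the highest library, and the call held under every alternative that was run. PSMD10, also known as gankyrin, was at 26.2, 23.4 and 22.0 FPKM and at 24.5, 24.8 and 22.9 FPKM (adjusted p = 0.868). PSMD9 was at 0.561, 0.532 and 0.689 FPKM and at 0.702, 0.552 and 0.753 FPKM (adjusted p = 0.519). The rule on names also took in 2 genes that encode no subunit: PSMC3IP, a recombination factor, at 5.11 ± 0.127 and 4.97 ± 0.694 FPKM, and PSME3IP1, a binding partner of PSME3, at 26.2 ± 1.84 and 25.5 ± 1.41 FPKM. Neither passed (adjusted p = 0.715 and 0.617).

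**Figure D5:**
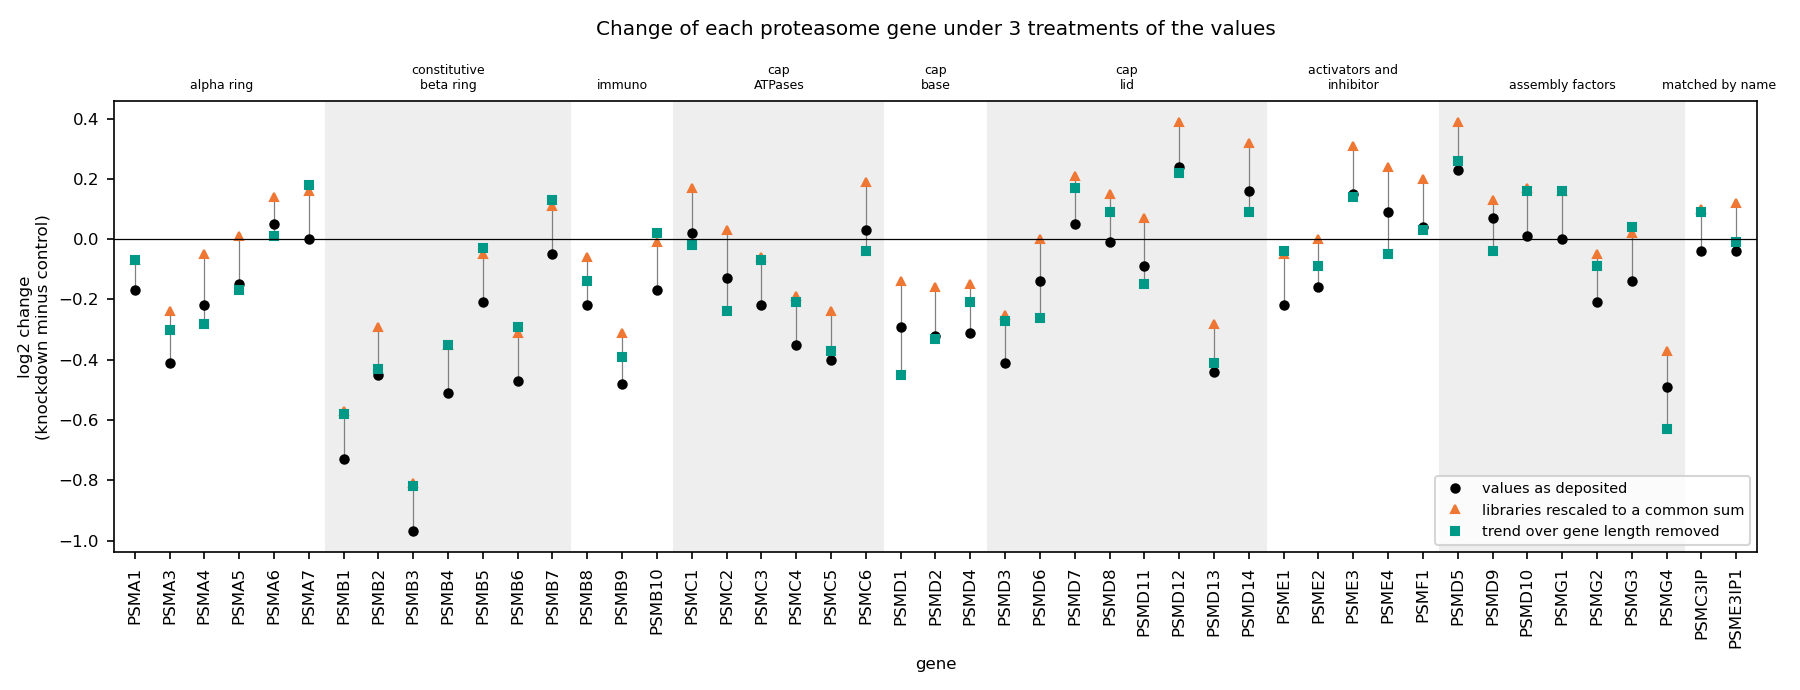
Log2 change of each of the 47 members tested (knockdown minus control) with values as deposited, with libraries rescaled to a common sum and with the trend over gene length removed. PSMB1 to PSMB4 stay below 0 in all 3, while PSMA7, PSMB7 and PSMG1 move from near 0 to 0.11 or higher.

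Genes that work with the proteasome but lie outside the name rule were taken from a list of 13. Of these 3 rose and 5 fell (median -0.04), beside 29.5% of all genes higher and 27.8% lower. With a common sum 6 rose and 2 fell (median 0.12), beside 4864 of the 11214 genes tested higher and 1838 lower (median 0.14). POMP, the chaperone required for the beta ring to form, was at 111, 109.8 and 109.6 FPKM in control and at 69.6, 60.6 and 70.0 FPKM in knockdown libraries. It fell to 60.6% (log2 change -0.72, SE 0.058, adjusted p = 7.45e-06). SEM1, the smallest subunit of the lid, fell from 4.56 ± 0.276 to 2.44 ± 0.0184 FPKM (log2 change -0.69, adjusted p = 2.46e-05), and PAAF1, which binds the ATPases, from 5.44 ± 0.106 to 4.25 ± 0.362 FPKM, a call lost with a common sum (-0.16). ECPAS, a factor that tethers core and cap, was at 23.0 ± 0.533 FPKM and rose to 31.7 ± 0.590 FPKM (log2 change 0.44, adjusted p = 2.72e-05). ADRM1, a ubiquitin receptor in the base of the cap, rose from 27.9 ± 0.895 to 32.7 ± 2.19 FPKM. USP14, a deubiquitinase of the cap, rose from 14.2 ± 0.282 to 16.3 ± 0.347 FPKM.

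Another list held NFE2L1 itself, NFE2L2, the 3 small MAF genes and genes through which NFE2L1 is made active. Of its 11 genes 6 rose and 1 fell, with a median change of 0.20, beside 29.5% of all genes higher and 27.8% lower. With a common sum 9 rose and none fell, beside 4864 of the 11214 genes tested higher and 1838 lower. Without the length trend 4 rose and 2 fell, beside 3233 genes higher and 3183 lower. NFE2L1 was at 67.2, 65.1 and 65.5 FPKM in control and at 101.9, 110.7 and 98.3 FPKM in knockdown libraries and rose to 157% (log2 change 0.64, SE 0.051, adjusted p = 7.02e-06). All knockdown libraries lay above all controls. Of the 3 small MAF genes MAFK and MAFF rose, MAFK from 5.06 ± 0.299 to 7.43 ± 0.542 FPKM and MAFF from 6.30 ± 0.173 to 8.85 ± 0.104 FPKM. MAFG was at 10.3 ± 0.361 and 10.5 ± 0.0842 FPKM, with overlapping groups, and did not pass (adjusted p = 0.686) except as higher with a common sum (0.18). DDI2, the protease that cuts NFE2L1, rose from 3.78 ± 0.113 to 4.77 ± 0.599 FPKM, but did not pass without the length trend (0.12) or without control replicate 3 (0.25). VCP, the ATPase that extracts NFE2L1 from the endoplasmic reticulum, fell from 31.5 ± 0.147 to 26.4 ± 1.07 FPKM, though not with a common sum (-0.08). NFE2L2, picked after its values were seen, did not pass, at 38.6 ± 1.41 and 38.2 ± 1.21 FPKM (adjusted p = 0.849). It passed as higher with a common sum (0.15), where the median of all genes was 0.14.

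Of 6 shuttle factors tested, which carry ubiquitin-tagged proteins to the cap, 3 rose and 1 fell (all genes: 29.5% and 27.8%). Without the length trend 1 rose and none fell, beside 3233 of the 11214 genes tested higher and 3183 lower. RAD23B rose from 98.3 ± 2.68 to 122 ± 6.18 FPKM and UBQLN1 from 38.4 ± 0.715 to 41.9 ± 1.14 FPKM. DDI2, given above, was the other that rose. UBQLN1 lost its call without the length trend (0.07), with the replicate number as a block (adjusted p = 0.0613), without any control library or without knockdown replicate 3. Among 6 ubiquitin and E1 genes 2 rose and 2 fell, against the same shares over all genes. The E1 gene UBA6 rose from 8.10 ± 0.176 to 9.42 ± 0.506 FPKM. The polyubiquitin gene UBB fell from 38.9 ± 1.70 to 31.7 ± 1.22 FPKM. UBA6 lost its call without the length trend (0.05) and without control replicate 1 or 3, and UBB with a common sum (-0.12) and without the length trend (-0.10). Ubiquitin genes share near-identical sequence, and their levels are uncertain where the counting could split reads between them.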

How the data were processed

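Per the labels' protocols, RNA was extracted with TRIzol and libraries made with a TruSeq RNA kit. HISAT2 2.2.1 and GRCh38 are named in the submitters' processing notes. For the counting program, annotation, gene lengths and strand setting, nothing is stated by the labels or notes. The authors deposited 1 table of FPKM for 12829 genes, whose lowest mean is 0.1 FPKM. Low values are whole multiples of 1 read, and whole reads were recovered for 100.0% of genes (within 0.004 reads), which gave the depths and a per-gene length. The precision of low genes is limited by these reads.

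Groups came from the sample labels. The 48 members and all lists were chosen with earlier results of these data known. limma 3.58.1 (R 4.3.3), with a mean-variance trend, compared log2(FPKM + 1) of 3 knockdown and 3 control libraries over the 11214 genes that averaged 0.5 FPKM or more. P-values are two-sided and adjusted by Benjamini-Hochberg over these genes, with a threshold of 0.05. The script was tested on simulated data. Every member is accounted for. Of the other listed genes, up to 3 with the largest rises and 3 with the largest falls past the threshold are named, except some that are not reported here. Positions and shared coding bases are from GENCODE v29, in which 12818 genes were matched by identifier, and promoters from RefSeq. Alternatives were pseudocounts of 0.1 and 0.5, no filter, a filter of 5 FPKM, a common sum, quantile normalization, removal of the trend over gene length in each library (lowess span 0.3), limma-voom on recovered reads, the replicate number as a block, and leaving out each library. For genes outside the family these were added after seeing the data.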

Additional observations from a re-analysis of the deposited data

How the results depend on the processing

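Pseudocounts of 0.1 and 0.5, the absence of a filter and the replicate block changed no member's call. Of the 24 falls, 14 held under every alternative that gave a value, as did 2 of the 4 rises (PSMD5 and PSMD12). With a common sum 1838 genes were lower (3121 as deposited) and 4864 higher (3313), and 12 members were higher and 14 lower. The median of all genes tested was 0.14. Class medians were then -0.02 (alpha ring), -0.31 (constitutive beta ring), -0.06 (immunoproteasome), -0.02 (cap ATPases), -0.15 (rest of the base), 0.11 (lid), 0.20 (activators and inhibitor), 0.13 (assembly factors), -0.07 (all core), 0.00 (all cap) and 0.00 (all members). Members that changed sign and passed the threshold either as deposited or with a common sum were PSMA5 (0.01), PSMA7 (0.16), PSMB7 (0.11), PSMD8 (0.15), PSME2 (0.00) and PSMG1 (0.16), and outside the family ZFAND5 (0.00), FBXO7 (0.14) and NFE2L2 (0.15). PSMC6 (0.19), PSMD7 (0.21), PSME4 (0.24) and PSMF1 (0.20) kept their sign and newly passed as higher. Without the length trend medians were -0.12 (alpha ring), -0.14 (immunoproteasome), -0.04 (activators and inhibitor), -0.28 (all core), -0.21 (all cap) and -0.07 (all members), and PSMA7 (0.18), PSMB7 (0.13), PSMB10 (0.02), PSMG1 (0.16) and IRF1 (-0.15) changed sign in the same sense. Quantile normalization gave -0.28 for the rest of the base and 0.00 for the lid. The core median was -0.41 among genes of at least 5 FPKM and -0.27 with voom. The cause of these shifts was not tested.

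Leaving out 1 library gave 2 to 4 members higher, with 2 without control replicate 2, and 21 to 25 lower. Medians ranged from -0.33 to -0.30 for the rest of the base and from -0.08 to -0.02 for the lid. Same-numbered libraries had correlations of deviations of -0.067, -0.038 and 0.019, beside -0.043 to 0.081 for other pairs. With 3 libraries per group, these values cannot show whether same-numbered libraries were handled together, and the labels do not say. With the replicate number as a block 3167 genes were higher and 3024 lower, and 4 members were higher and 24 lower. PSMA2, with 2 to 7 reads per library, lay below the filter and was not compared.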
